A study of Mus musculus with 2 samples.

Results

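C1q-positive tumor macrophages are the 1182 cells, of 11481 in all, that carried transcripts of the complement protein C1q in 2 single-cell RNA-seq libraries of CD45-positive leukocytes from mouse tumors. The cells were chosen by measured values. A cell barcode (the tag that marks the RNA of 1 droplet) had to hold at least 500 unique molecular identifiers (UMIs, each counting 1 captured RNA molecule), at least 300 genes and at most 10% mitochondrial UMIs. It also needed at least 3 UMIs from at least 2 of C1qa, C1qb and C1qc and a summed C1q level of at least 500 counts per 1000000 UMIs (CPM). It could hold at most 1 UMI of the lymphocyte genes Cd3d, Cd3e, Cd3g, Ncr1, Klrb1c and Klre1 together, and at most 1 UMI of the B cell gene Cd79a and the tumor cell gene Rhox5 together. This gate kept 830 of 5608 candidate barcodes from the normal diet library and 352 of 5873 from the ketogenic diet library. C1q levels, the number of members and every gene of the gated cells therefore describe the cells that were chosen and are given without a test.

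C1q is the recognition unit of the classical complement pathway, assembled from the products of C1qa, C1qb and C1qc, and binds antibody complexes and dying cells. Most blood complement proteins come from the liver, but C1q comes mainly from macrophages and some dendritic cells. In tumors, C1q marks macrophages that have matured beyond the monocytes that enter from blood, and such cells often carry lysosomal, lipid-handling and antigen-presenting genes.

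Both libraries came from MC38 tumors, a mouse colon adenocarcinoma line grown subcutaneously. The hosts were C57BL/6J females, 6 to 8 weeks old. The normal diet group ate the normal diet and the ketogenic diet group received ketogenic food from day 4. Tumors were taken at day 14, 5 mice were pooled in each library, and leukocytes were enriched with magnetic beads after dead cells had been removed. No barcode carries a mark of its mouse. Since each diet has 1 library, the spread among mice is unknown. Differences are described by size, without a test, and 95% intervals cover counting error only. They are exact Poisson for CPM, exact conditional for ratios and Clopper-Pearson for shares.

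The libraries held 37575996 and 42710007 UMIs (normal and ketogenic, the order used throughout), of which members held 4290986 and 1598741. Median depth per member was 4453 and 4100.5 UMIs, 1760.5 and 1528 genes, with a mitochondrial share of 1.18% and 0.723%. Candidates of the 2 libraries shared 7 barcode sequences, and 1 member in each library had such a sequence. Barcodes with at most 100 UMIs, which measure free RNA, held 4.33% and 6.09% of all UMIs.

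C1q-positive macrophages were 2.47-fold less frequent in the ketogenic library. They made up 14.8% of candidates (13.9 to 15.8) under the normal and 5.99% (5.40 to 6.63) under the ketogenic diet. The log2 ratio was −1.30 (−1.49 to −1.12). Among candidates that passed the lymphocyte, B cell and tumor limits, they made up 27.5% of 3021 and 15.2% of 2323, a log2 ratio of −0.86. The second denominator holds fewer lymphocytes, which numbered 2242 and 3027 barcodes by at least 3 UMIs from at least 2 of the 6 lymphocyte genes. Both denominators gave a lower share under the ketogenic diet.

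The C1q criterion alone was met by 1314 and 608 candidates, and the lymphocyte genes removed 472 (35.9%) and 251 (41.3%) of these. Only 12 and 5 were removed by Cd79a and Rhox5 alone. Among lymphocyte barcodes, which should lack C1q, 40.8% and 17.9% held at least 1 C1q UMI and 19.4% and 7.90% met the full C1q criterion. Median depth of lymphocyte barcodes was 7054.5 and 6197 UMIs. Among UMIs of free RNA alone, C1q stood at 2010 and 564 CPM. The 500 CPM of the gate is a share of all UMIs of a barcode, so it is not a like measure. In members, which the gate kept low in lymphocyte genes, Gzma, Gzmb, Gzmc, Nkg7 and Trbc2 summed to 226 and 223 CPM. That was 2.85% and 1.64% of their level in free RNA. How many members met the gate through free RNA or through 2 cells in 1 droplet was not tested.

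Levels of C1q among barcodes that passed the exclusions formed a low and a high group on either side of the gate. Members ranged from 506 to 48048 CPM around a median of 8516 in the normal library and from 501 to 38231 CPM around a median of 8061 in the ketogenic library. Only 37 (4.46%) and 15 (4.26%) members lay between 500 and 1000 CPM, with medians of 810 and 699 CPM. Just outside, 314 and 109 barcodes of at least 250 CPM failed the criterion, with medians of 410 and 432 CPM. Apoe was close on both sides of the cut, at 1902 and 2523 CPM inside and 1856 and 2063 CPM outside. Ms4a7 was higher inside than outside in the normal library (612 and 365 CPM) but not in the ketogenic library (221 and 278 CPM).

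**Figure D1:**
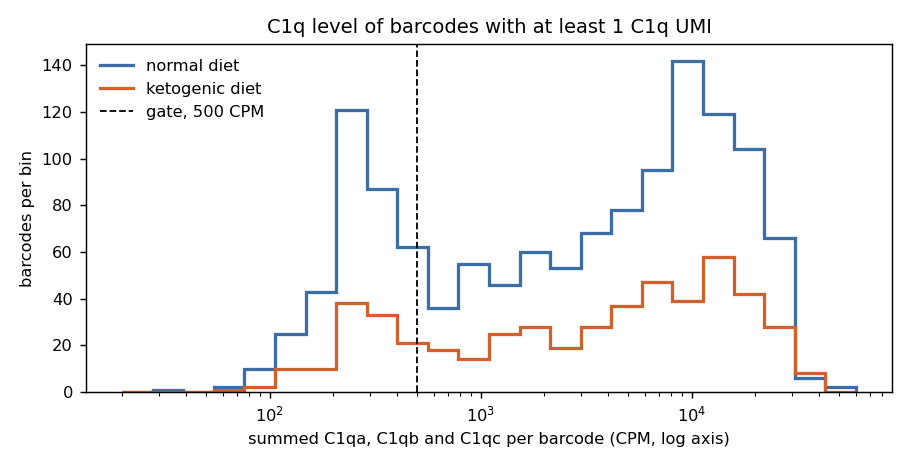
Number of barcodes (vertical axis) by summed C1qa, C1qb and C1qc level in CPM (horizontal log axis) for candidates that passed the lymphocyte, B cell and tumor limits and held at least 1 C1q UMI, with the normal diet library in blue and the ketogenic in orange. The dashed line marks the gate at 500 CPM, and members had medians of 8516 and 8061 CPM.

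Most members held all 3 C1q genes, of which the gate required at least 2. C1qb, the B chain gene, had at least 1 UMI in 99.5% and 99.1% of members, C1qc in 96.6% and 94.6%, and C1qa in 88.8% and 86.4%. All 3 genes were seen in 705 (84.9%) and 282 (80.1%) members. In the summed counts C1qa stood at 3953 and 3740 CPM, C1qb at 3972 and 4428 CPM and C1qc at 2102 and 2306 CPM. UMIs are counted at transcript ends, so these levels are not divided by transcript length. C1qa gave 39.4% and 35.7% of the C1q UMIs, and free RNA of the same libraries showed a like split (38.4% and 35.6%). Levels of the C1q genes in members were close between diets, which follows in part from the gate. In free RNA, C1q stood at 2010 and 564 CPM.

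The C1q genes lie side by side on mouse chromosome 4. The 250 bases before the annotated starts of C1qb (chr4:136886201-136886450, minus strand) and C1qc (chr4:136892915-136893164, minus strand) are printed because both genes helped to draw the gate. Capitals mark matches to GAGGAA, a core bound by the myeloid factor PU.1, and to TGCTGA, a half-site of MAF factors, searched on both strands. Sequences are from RefSeq on GRCm38.p6, read along the gene's strand.
C1qb: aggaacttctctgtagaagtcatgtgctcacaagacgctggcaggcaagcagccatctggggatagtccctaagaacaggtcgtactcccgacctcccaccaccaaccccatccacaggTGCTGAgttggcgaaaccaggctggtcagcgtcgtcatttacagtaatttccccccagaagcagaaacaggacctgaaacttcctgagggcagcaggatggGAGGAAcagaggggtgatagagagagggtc
C1qc: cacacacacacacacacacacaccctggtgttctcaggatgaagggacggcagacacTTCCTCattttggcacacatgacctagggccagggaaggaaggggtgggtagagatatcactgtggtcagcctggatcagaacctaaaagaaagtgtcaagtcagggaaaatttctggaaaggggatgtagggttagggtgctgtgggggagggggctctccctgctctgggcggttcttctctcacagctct
In C1qb, GAGGAA lies 30 to 25 bases and TGCTGA 131 to 126 bases before the start. In C1qc, GAGGAA lies on the opposite strand 193 to 188 bases before the start. Of 32851 such windows in the RefSeq table, 23.3% held GAGGAA and 16.1% held TGCTGA, so such matches are common. Genes of such factors were present in members, with Spi1 (PU.1) at 732 and 661 CPM and Maf at 359 and 238 CPM. They were also present in C1q-low monocytes, described below, with Spi1 at 750 and 639 CPM and Maf at 254 and 189 CPM.

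The label was checked against markers. Apoe, the lipid carrier apolipoprotein E, stood at 4896 and 4966 CPM in members against 1368 and 1043 CPM in C1q-low monocytes of the same libraries. Ms4a7, a membrane protein gene of mature macrophages, stood at 1460 and 1322 CPM against 229 and 116 CPM. Ccl12, a ligand of the monocyte receptor CCR2, stood at 1291 and 1537 CPM against 271 and 239 CPM. All 3 markers outside the gate were therefore higher in members than in monocytes in both libraries. Adgre1 (F4/80), a pan-macrophage gene, stood at 204 and 166 CPM against 90.0 and 65.9 CPM, and Mrc1, the mannose receptor, at 86.5 and 77.6 CPM against 14.1 and 5.74 CPM. Of 20 macrophage identity genes, 4 were at least 2-fold higher in members in both libraries (2.71% of all measured genes) and 1 lower (1.92%). Their medians were 0.25 and 0.30 (log2), against 0.081 and 0.060 for all measured genes. Csf1r was close, at 409 and 320 CPM against 374 and 315 CPM. Lyz2 was lower in members, at 4517 and 5531 CPM against 13755 and 15589 CPM.

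Markers of other cell types were low in members but rarely at 0. The gate itself limited Cd3d, Cd3e, Cd3g, Ncr1, Klrb1c, Klre1, Cd79a and Rhox5, which belong to the lists below. Low sums of the T cell, natural killer, B cell and tumor lists therefore follow in part from the gate. The lymphocyte barcodes set beside them were chosen by the same lymphocyte genes. The 7 T cell genes summed to 31.7 and 40.03 CPM (1955 and 2178 in lymphocyte barcodes), the 7 natural killer cell genes to 157 and 144 CPM, the 5 B cell genes to 73.6 and 61.3 CPM and the 8 neutrophil genes to 539 and 469 CPM. The 9 fibroblast or tumor genes summed to 23.1 and 14.4 CPM and the 5 mast cell or basophil genes to 0.466 CPM and 0, where 3 UMIs would give 1.88 CPM. Dendritic cell lists summed to 401 and 275 CPM (cDC1) and 359 and 305 CPM (cDC2), nearly all from Irf8 and Sirpa, which macrophages also carry. The cDC1 genes Xcr1 and Clec9a were each below 1 CPM, and in the plasmacytoid list Siglech stood at 6.53 and 8.13 CPM. Genes that defined the monocyte gate were high in members too, with Ly6c2 at 3367 and 2711 CPM against 4345 and 3397 CPM in C1q-low monocytes. Some T cells also carry Ly6c2, and it was not used to judge free RNA.

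Against C1q-low monocytes, members carried more antigen-presenting, lysosomal and lipid-handling transcripts in both libraries. These monocytes, 978 and 1071 barcodes, met the same limits with C1q below 500 CPM, and had at least 3 UMIs from at least 2 of Ly6c2, Chil3 and Hp at 500 CPM or more. Of 6941 genes with a mean of at least 10 CPM, 188 (2.71%) were at least 2-fold higher in members in both libraries and 133 (1.92%) at least 2-fold lower. Since C1q and monocyte genes drew the gates, these counts describe the gated cells and were not tested.

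Of 8 measured MHC class II genes, which present peptides to CD4 T cells, 5 were 2-fold higher in members in both libraries, with list medians of 1.40 and 1.59 (log2) against 0.081 and 0.060 for all measured genes. H2-Eb1 stood at 1519 CPM in members against 361 CPM in monocytes in the normal library, and at 1207 against 242 CPM in the ketogenic library. Of 18 lipid-associated macrophage genes 7 were higher and none lower, with Trem2, a lipid-sensing receptor, at 301 against 82.5 CPM and 360 against 67.9 CPM. Of 26 lysosome genes 7 were higher and none lower, with Lgmn, the protease legumain, at 1723 against 543 CPM and 1441 against 347 CPM.

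Genes were ranked by the smaller ratio of the 2 libraries, among those of at least 20 CPM with no barcode holding over 20% of their UMIs in any of the 4 groups of cells. Pf4 (log2 3.11 and 4.62), Retnla (4.27 and 5.57), Ccl8 (3.76 and 3.55) and Mrc1 (2.26 and 2.94) had larger ratios than some of the 10 highest but did not meet that limit. Beside Ms4a7, Ccl12 and H2-Eb1, the 10 highest by this rank included surface receptors of macrophages. Cd72, a C-type lectin, stood at 615 against 79.7 CPM and 458 against 50.9 CPM. Folr2, folate receptor beta, stood at 87.4 against 4.63 CPM and 50.7 against 3.74 CPM. Fcrls, Gatm, Cd81, Stmn1 and Slamf9 followed, with log2 ratios between 2.19 and 3.28. The 10 lowest genes were led by Mgst1 and Ifitm6. Mgst1, a glutathione transferase, stood at 41.9 against 277 CPM and 75.1 against 423 CPM. Vcan, the matrix proteoglycan versican, stood at 61.3 against 349 CPM and 90.7 against 378 CPM. Ifitm6 stood at 162 against 861 CPM and 133 against 777 CPM. Rasgrp2, Pi16, Cd177, Dmkn, Pdlim1, Gsr and Plcb1 made up the rest of the 10 lowest. The 47 measured type I interferon genes had medians of −0.25 and −0.32, none past 2-fold in both libraries.

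C1q-low Arg1-positive macrophages, a second comparison gate (at least 3 Arg1 UMIs and 500 CPM, with little monocyte signal), held only 35 and 17 barcodes. Of 7258 measured genes 203 (2.8%) were 2-fold higher in members in both libraries and 188 (2.59%) lower. Hypoxia genes were lower in members, 9 of 17 in both libraries, with medians of −1.22 and −1.61. Hilpda, a hypoxia-induced lipid droplet gene, stood at 220 CPM in members against 932 CPM (130 UMIs) in the normal library and at 298 against 1271 CPM (88 UMIs) in the ketogenic library. Spp1, the matrix cytokine osteopontin, stood at 696 against 3220 CPM and 1153 against 2760 CPM. Lipid-associated macrophage genes were also lower in members, 5 of 18 in both libraries and none higher, with medians of −0.73 and −0.62. Lysosome genes had medians of −0.047 and 0.23, with 1 of 26 higher in both libraries and none lower. MHC class II genes had medians of −0.00073 and 2.22, with 1 of 8 higher in both libraries. All measured genes had medians of 0.027 and −0.026.

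Members varied among themselves along their C1q level. All members were ranked together by C1q CPM and divided into 4 quartiles at 3911, 8412 and 14600 CPM, holding 205, 205, 215 and 205 normal diet and 91, 90, 80 and 91 ketogenic diet cells. Levels in the quartiles leave the C1q genes out of the CPM total. Of 7124 measured genes, 92 (1.29%) were at least 2-fold higher in the top than in the bottom quartile in both libraries and 144 (2.02%) at least 2-fold lower. Cells were ranked by C1q itself, so this is a description of the ranking. The 10 highest and 10 lowest named here had at least 20 CPM and no cell with over 20% of their UMIs in either library, which left out Ccl8 (log2 2.87 and 2.70) and G0s2 (−3.09 and −2.49).

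Apoe went from 2608 CPM in the bottom to 8086 CPM in the top quartile of the normal library, and from 1783 to 8627 CPM in the ketogenic library. Folr2 went from 32.8 to 160 CPM and from 7.23 to 87.5 CPM. Olfml3, a secreted matrix protein gene, went from 13.8 to 85.3 CPM and from 14.5 to 124 CPM. All 3 were higher with each step of C1q in both libraries. Gatm, Fcrls, Cdca8, Cd81, Zmynd15, Vkorc1 and Timp2 completed the 10 highest.

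Monocyte genes went the other way, with medians over 10 genes of −1.48 and −1.61 (log2, top over bottom) against 0.0055 and 0.071 for all genes. Slpi, a secreted protease inhibitor, went from 293 to 24.1 CPM and from 569 to 41.4 CPM. Chil3, a chitinase-like lectin of monocytes, went from 413 to 82.6 CPM and from 957 to 138 CPM. Thbs1, the adhesive protein thrombospondin, went from 660 to 122 CPM and from 687 to 87.5 CPM. Hp, Vcan, Dmkn, Ifitm6, F10 and Mmp8 were also among the 10 lowest. Ly6c2 was less graded, from 4008 to 2354 CPM and from 3964 to 1717 CPM.

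Other groups followed the C1q order less closely. Cell cycle genes had medians of 0.96 and 0.75, hypoxia genes −0.97 and −0.57, type I interferon genes −0.53 and −0.56 and immediate early and heat shock genes −0.69 and −0.53. MHC class II genes did not follow it in the normal library (median 0.018), where H2-Aa stood at 2387 CPM in the bottom and 2377 CPM in the top quartile. In the ketogenic library the MHC class II median was 0.79 and H2-Aa stood at 1188 and 2051 CPM. Whether the C1q order of MHC class II genes differs between diets was not tested.

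**Figure D2:**
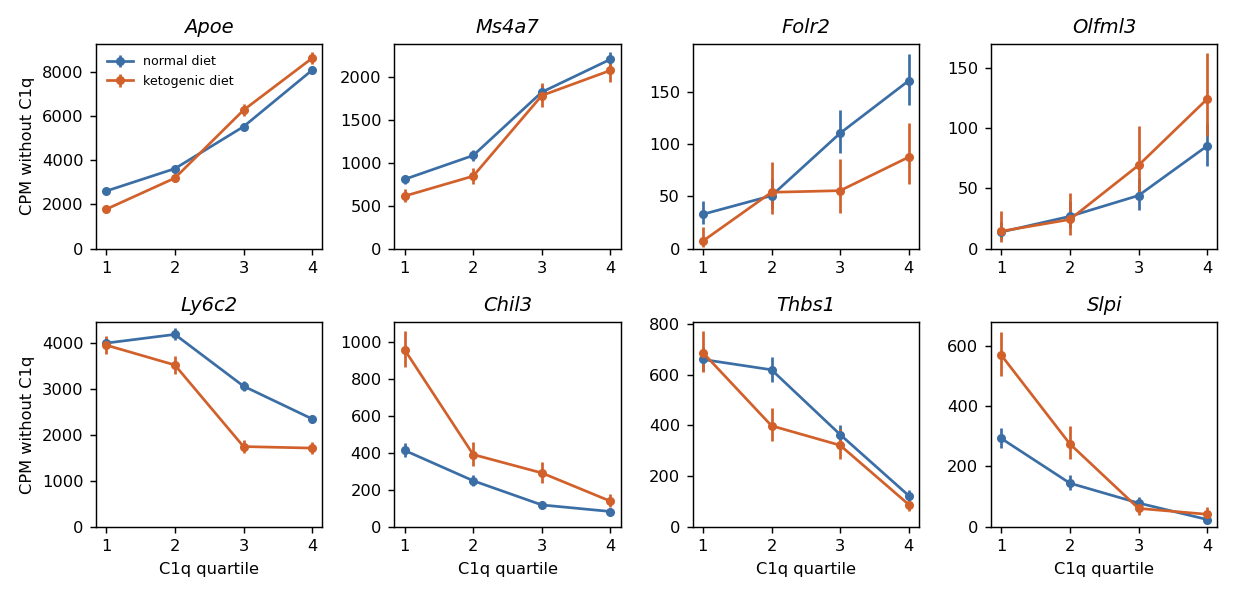
Level of 8 genes (CPM without the C1q genes, vertical axes from 0) in members grouped by C1q quartile (horizontal axis, 1 is the lowest), with the normal diet library in blue and the ketogenic in orange. Points are summed levels and bars 95% counting intervals. Apoe, Ms4a7, Folr2 and Olfml3 were higher and Ly6c2, Chil3, Thbs1 and Slpi lower in quartile 4 than in quartile 1 of both libraries, as for Apoe from 2608 to 8086 CPM in the normal library.

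Between diets, most genes of C1q-positive macrophages differed little. UMIs were summed over the members of each library and compared as log2 of (ketogenic CPM + 5) over (normal CPM + 5), so ratios of low genes are understated. Of 7107 genes with a mean of at least 10 CPM, 16 (0.225%) were at least 2-fold higher in the ketogenic library and 33 (0.464%) at least 2-fold lower. At 1.5-fold, 109 (1.53%) were higher and 501 (7.05%) lower, and 4503 (63.4%) had a ratio below 0. These shares are the background for every list count between diets given below. The median was −0.10. With the median of genes of at least 200 UMIs set to 0, a shift of −0.08, the 2-fold counts were 22 and 21, so 51.2% of 2-fold genes were higher in place of 32.7%.

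Genes that were higher in the ketogenic library were led by Id1 and Cxcl2. Id1, an inhibitor of differentiation factors, stood at 20.7 and 72.6 CPM (log2 1.59, ratio 3.50, 2.63 to 4.66), from 62 and 43 cells. Plaur, the urokinase receptor, stood at 126 and 285 CPM (log2 1.15), and Chil3 at 217 and 442 CPM (log2 1.01). Rgcc, a cell cycle regulator, stood at 30.3 and 65.1 CPM (log2 0.99). Shtn1, Prelid2 and Plp2 had log2 ratios of 1.23, 0.95 and 0.89, and Id3, a relative of Id1, 0.85. Birc5, Pclaf and Stmn1, genes of dividing cells, completed the 12 highest that met the limits for naming.

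The lowest ratios included interferon-stimulated genes and noncoding RNAs. AY036118 stood at 85.5 and 26.3 CPM (log2 −1.53) and Xist, the RNA that silences an X chromosome in female cells, at 475 and 191 CPM (log2 −1.29). Oas3, an antiviral enzyme that senses double-stranded RNA, stood at 258 and 106 CPM (log2 −1.24). Synj1, Ddx60, Scd2, Etv3, Slc25a45, Ifi44, Psme2b, Ccnd2 and Herc6 followed, with log2 ratios from −1.14 to −1.01. Of these, Oas3, Ifi44 and Herc6 belong to the type I interferon list.

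**Figure D3:**
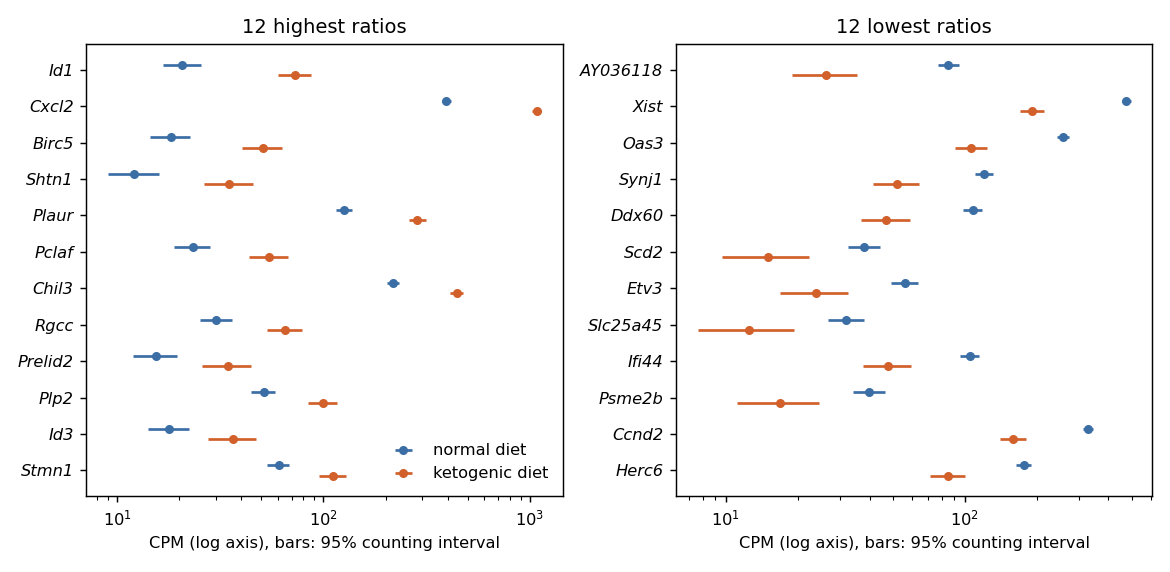
CPM (horizontal log axis) of the 12 genes with the highest and the 12 with the lowest ketogenic over normal ratio in C1q-positive macrophages, in the normal diet (blue) and ketogenic diet (orange) library, with 95% counting intervals as bars. Id1 stood at 20.7 and 72.6 CPM and Oas3 at 258 and 106 CPM. The 24 genes were picked as the extreme ratios of these same data, so a gap between their bars follows in part from that choice. The bars treat UMIs as independent, although 1 cell held 15.5% of the ketogenic Id1 UMIs.

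Interferon-stimulated genes were lower as a group in the ketogenic library. Type I interferon genes restrict viruses and are induced through the interferon alpha receptor. Of 47 measured, 13 were at least 1.5-fold lower, where 7.05% of all genes were, and none higher, where 1.53% were. A ratio below 0 was seen in 44, where 63.4% of all genes had one. The median was −0.41 against −0.10 for all genes. Rsad2 (viperin) stood at 1340 and 845 CPM, Ifit1bl1 at 309 and 170 CPM, Stat2, a signaling factor of the pathway, at 214 and 129 CPM, and Herc6 at 176 and 85.1 CPM. The most abundant members of the list differed less, with Isg15 at 3896 and 3529 CPM and Ifi27l2a at 4248 and 4400 CPM. The same list had a median of −0.34 in C1q-low monocytes and −0.35 in lymphocyte barcodes.

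Of 25 genes induced by interferon gamma 6 were at least 1.5-fold lower, where 7.05% of all genes were, and none higher, where 1.53% were. The list median was −0.34, against −0.10 for all genes. Iigp1, a GTPase against intracellular parasites, stood at 204 and 117 CPM, and Ciita, the switch of MHC class II genes, at 34.7 and 16.9 CPM. Cxcl10, a chemokine ligand of CXCR3, went against the list at 2428 and 2900 CPM.

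The promoters of Cxcl2 (chr5:90903649-90903898, plus strand) and Oas3 (chr5:120777660-120777909, minus strand) are printed because these genes led the chemokine and interferon groups in opposite directions. They are the 250 bases before the annotated start, from RefSeq on GRCm38.p6. Capitals in Cxcl2 mark a form of the NF-kB site, GGG, any 2 bases and TTTCC. Capitals in Oas3 mark the core of the interferon-stimulated response element, GAAA, any 2 bases and GAAA. Both strands were searched.
Cxcl2: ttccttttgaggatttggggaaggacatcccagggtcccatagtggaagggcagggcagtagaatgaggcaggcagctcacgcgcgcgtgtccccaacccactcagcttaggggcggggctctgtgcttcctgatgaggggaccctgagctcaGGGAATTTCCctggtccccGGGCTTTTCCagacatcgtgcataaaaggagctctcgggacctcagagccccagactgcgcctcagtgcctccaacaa
Oas3: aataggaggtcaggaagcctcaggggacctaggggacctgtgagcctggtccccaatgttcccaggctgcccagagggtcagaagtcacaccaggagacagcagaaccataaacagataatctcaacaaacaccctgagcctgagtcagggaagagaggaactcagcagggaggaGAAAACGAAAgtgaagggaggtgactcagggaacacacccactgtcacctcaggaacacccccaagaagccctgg
Cxcl2 held 2 NF-kB matches, 97 to 88 and 78 to 69 bases before the start, which do not overlap. Oas3 held 1 interferon match, 75 to 66 bases before the start. Of all 32851 windows, 1.41% held the NF-kB form and 2.98% the interferon core. The Oas3 window also held GAGGAA and TGCTGA, which are not in capitals.

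Chemokines differed by gene. Of 17 measured, 4 were at least 1.5-fold higher in the ketogenic library, where 1.53% of all genes were, and 2 lower, where 7.05% were. The median was 0.24, against −0.10 for all genes. Cxcl2, a neutrophil attractant, stood at 394 and 1079 CPM (log2 1.44, ratio 2.74, 2.56 to 2.93). Ccl2, the main ligand of CCR2, stood at 1859 and 3243 CPM (log2 0.80). Pf4, platelet factor 4 and also a macrophage product, stood at 543 and 958 CPM (log2 0.81). Ccl5, a T cell attractant, was lower at 1003 and 544 CPM (log2 −0.88). Cxcl3 (24.2 and 67.6 CPM) and Ccl8 (336 and 109 CPM), named after their values were seen, were past 1.5-fold but had over 20% of their ketogenic UMIs in a single cell.

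Transcripts of Cxcl2 and Pf4 sat in a minority of cells, while Ccl2 was seen in most. Cxcl2 UMIs were found in 219 and 129 members, and the 83 and 36 cells with the most held 85.4% and 74.3% of them. At 1000 UMIs per cell, 13.8% (11.5 to 16.4) of 804 and 25.9% (21.3 to 31.0) of 332 members had a Cxcl2 UMI, against 6.27% and 7.55% of lymphocyte barcodes. Without thinning the member shares were 26.4% and 36.6%. Thinning left out 26 and 20 shallower members. Both the share of cells and the mean in positive cells (2.53 and 4.56 UMIs) were higher in the ketogenic library. For Ccl2 the shares were close (60.3% and 62.7%) and the means 3.32 and 5.40 UMIs, and for Pf4 16.4% and 19.0% with means of 3.27 and 5.17 UMIs.

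Pf4-positive and Cxcl2-positive members overlapped, and both held Arg1 more often than the remaining members, but they differed in Il1b. At 1000 UMIs, Cxcl2 was seen in 22.7% and 36.5% of Pf4-positive members and in 12.1% and 23.4% of Pf4-negative members. Ccl7, a further CCR2 ligand, was seen in 67.4% and 71.4% against 40.5% and 36.4%. Arg1, the arginine-degrading enzyme of alternatively activated macrophages, was seen in 42.4% and 60.3% against 20.8% and 20.1%. Ly6c2 was less frequent in Pf4-positive members (53.8% and 46.0% against 78.0% and 67.7%), as was Il1b (18.9% and 34.9% against 47.5% and 49.4%). Cxcl2-positive members held Arg1 (37.8% and 40.7% against 22.2% and 23.2%) and Pf4 (27.0% and 26.7% against 14.7% and 16.3%) more often than Cxcl2-negative members. They also held Il1b more often (60.4% and 59.3% against 39.97% and 42.3%) and Ly6c2 about as often (72.1% and 61.6% against 74.3% and 64.2%). The shares rest on 132 and 63 Pf4-positive and 111 and 86 Cxcl2-positive members.

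Receptors and signaling genes of the Toll-like receptor and NF-kB response had no common direction. Of 34 measured, 3 were at least 1.5-fold higher, where 1.53% of all genes were, and 5 lower, where 7.05% were, with a median of −0.19. Cd14, the coreceptor for lipopolysaccharide, stood at 271 and 447 CPM (log2 0.71) and Clec4n, the fungal sensor dectin-2, at 198 and 348 CPM (log2 0.80). Nfkb1, a subunit of NF-kB, was lower at 121 and 63.8 CPM (log2 −0.87). Of 17 cytokine genes Pdgfa was higher and Csf1 lower, both named after their values were seen and with over 20% of their ketogenic UMIs in 1 cell, and Il1b stood at 1045 and 1329 CPM (log2 0.35). Of 36 immediate early and heat shock genes 3 were higher and 4 lower, with Fos at 1088 and 1648 CPM and Nr4a2 at 33.6 and 14.4 CPM.

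Complement and uptake genes outside C1q were close between diets. Of 13 measured complement genes none was at least 1.5-fold higher and 1 was lower, where 7.05% of all genes were, with a median of −0.22. C3ar1, the receptor for the fragment C3a, stood at 700 and 541 CPM and Cd93, a receptor once linked to C1q, at 145 and 85.7 CPM (log2 −0.73). Of 18 genes of apoptotic cell uptake none was higher and 2 lower, with a median of −0.20, and Axl, a receptor for dying cells, stood at 203 and 135 CPM. Fc receptors (7 genes, median 0.00092) and the Ms4a family (9 genes, median −0.11) held 0 and 1 genes past 1.5-fold, the latter Ms4a4a at 8.86 and 18.8 CPM.

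Lysosomal genes were close between diets and lipid-associated genes leaned higher. Of 26 lysosome genes none was higher and 1 lower. Ctsb, the protease cathepsin B, stood at 3793 and 3098 CPM and Ctsl, cathepsin L, at 708 and 1012 CPM (log2 0.51). Of 18 lipid-associated macrophage genes 3 were higher, where 1.53% of all genes were, and 1 lower, where 7.05% were. A ratio above 0 was seen in 14 (median 0.23), where 2604 of all 7107 genes had one. Spp1 stood at 696 and 1153 CPM (log2 0.72), with 14% of the ketogenic UMIs in 1 cell, and Cd9, a tetraspanin, at 125 and 211 CPM (log2 0.74). Gpnmb, a lysosomal glycoprotein, went the other way at 114 and 70.7 CPM (log2 −0.65), and Fabp4, named after its values were seen, stood at 10.5 and 28.1 CPM with 49% of the ketogenic UMIs in 1 cell.

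Counts of MHC class II genes were near the background. Of 8 measured, 6 had a ratio below 0, where 63.4% of all genes did, and Ciita alone was at least 1.5-fold lower, where 7.05% were. The list median was −0.30, against −0.10 for all genes. H2-Ab1 stood at 2418 and 1747 CPM (log2 −0.47) and Cd74, the invariant chain, at 5301 and 5855 CPM. Within C1q quartiles the class II median was −1.06 in the lowest, −0.39 and 0.24 in the middle and −0.06 in the highest, and with members of at least 4000 CPM of C1q it was −0.01. Whether these values differ between quartiles was not tested. Of 20 MHC class I genes 1 was 1.5-fold lower, Nlrc5, the class I activator, at 60.1 and 32.5 CPM. H2-K1 stood at 3775 and 2863 CPM and H2-D1 at 3705 and 4282 CPM, so the classical class I genes differed in sign. Of 21 checkpoint and T cell regulating genes 1 was higher and 3 lower, with Siglec1, a sialic acid receptor, at 57.8 and 31.3 CPM and Cd274 (PD-L1) at 144 and 119 CPM.

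**Figure D4:**
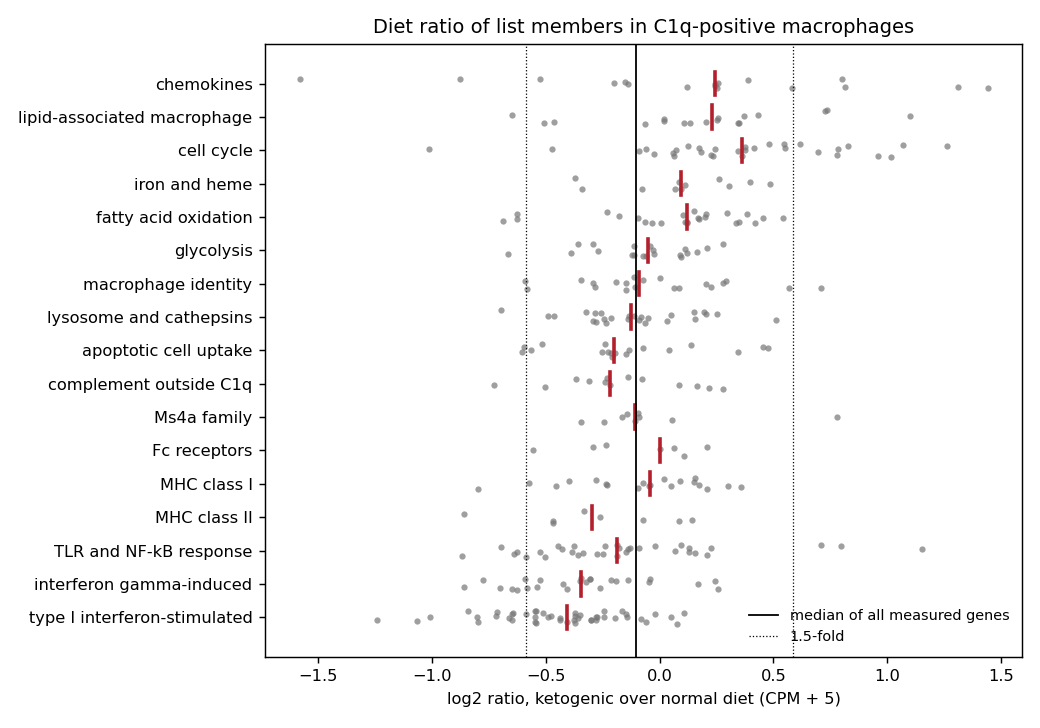
Ketogenic over normal log2 ratio (horizontal axis) of each measured member of 17 gene lists (gray points) with the list median as a red bar, in C1q-positive macrophages. The solid line is the median of all measured genes (−0.10) and dotted lines mark 1.5-fold, and the type I interferon list has the lowest median (−0.41) of the lists drawn.

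Genes of alternative activation were split. Of 15 measured, 4 were at least 1.5-fold higher and 2 lower. Arg1 stood at 560 and 707 CPM (log2 0.33) and Folr2 at 87.4 and 50.7 CPM (log2 −0.73). Retnla, named after its values were seen, stood at 121 and 305 CPM but 1 cell held 64.0% and 99.6% of its UMIs. Of 18 matrix and protease genes 3 were higher and 1 lower, among them the metalloproteases Mmp12 (113 and 181 CPM) and Mmp13 (53.4 and 83.2 CPM).

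Metabolic genes showed small differences under the ketogenic diet. Of 7 measured genes of ketone body use and sensing none was past 1.5-fold (median 0.080). Oxct1, the enzyme that activates acetoacetate, stood at 43.3 and 31.3 CPM (ratio interval 0.52 to 0.99) and Hcar2, the receptor for beta-hydroxybutyrate, at 36.8 and 23.8 CPM. Of 25 fatty acid oxidation genes 3 were lower, where 7.05% of all genes were, and none higher. Yet 17 had a ratio above 0 (median 0.12), where 2604 of all 7107 genes did. Acadm, a medium-chain dehydrogenase, stood at 30.8 and 18.1 CPM and Plin2, a lipid droplet coat, at 651 and 831 CPM. Of 20 glycolysis genes 1 was lower, Hk3 at 105 and 64.4 CPM, and Gapdh stood at 2791 and 3388 CPM. None of 16 hypoxia genes was past 1.5-fold. Of 19 sterol and fatty acid synthesis genes 1 was lower, the desaturase gene Scd2 at 38.0 and 15.0 CPM (log2 −1.10).

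Cell cycle genes were higher in the ketogenic members. Of 31 measured, 9 were at least 1.5-fold higher, where 1.53% of all genes were, and 1 lower, where 7.05% were. A ratio above 0 was seen in 26 (median 0.36), where 2604 of all 7107 genes had one. Birc5 (survivin) stood at 18.2 and 50.7 CPM (log2 1.26), Pclaf, a replication factor partner, at 23.3 and 54.4 CPM, and Stmn1 (stathmin) at 60.6 and 111 CPM. Ccnd2, cyclin D2, was lower at 328 and 160 CPM (log2 −1.01). The signal came from few cells, as Birc5 was seen in 40 and 25 members. Mki67 was seen in 1.12% and 1.81% of members at 1000 UMIs, below the 4.48% and 3.31% of lymphocyte barcodes at that depth. Without barcodes holding a UMI of Mki67, Top2a or Birc5, which left 737 and 308 members, the list median was −0.066, and with genes of at least 50 CPM only it was −0.025.

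Some genes rested on a handful of barcodes. Ccr7, a migration receptor of dendritic cells, had 106 UMIs in 19 normal diet members and none in the 352 ketogenic members. In place of a Clopper-Pearson interval, 3 divided by 352 gives an approximate upper limit of 0.852% for the share with a detected UMI. This does not limit the share of cells that express Ccr7. The 4 genes of CCR7-positive dendritic cells summed to 46.8 and 1.25 CPM. Klk1, used as a plasmacytoid dendritic cell marker, had 3 and 48 UMIs, of which 1 ketogenic cell held 93.8%. Without barcodes holding Ccr7, Klk1 or Siglech, 808 and 349 members remained and the 2-fold counts were 12 and 32.

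Of the 24 named genes, all but Pclaf and Rgcc kept their diet direction in each C1q quartile. The genes were picked by their ratio over all members, which the quartiles make up. Keeping the direction therefore follows in part from how they were picked. Pclaf had log2 ratios of 2.38, 0.49, 1.85 and −0.14 from the lowest to the highest quartile, and Rgcc 0.93, 1.31, 1.23 and −0.04. In the same order Cxcl2 had 0.93, 1.52, 1.57 and 2.21, and Plaur 1.18, 0.95, 1.29 and 1.28. Oas3 had −1.04, −0.91, −2.08 and −1.29, and the type I interferon list medians of −0.35, −0.42, −0.54 and −0.41. Ccl2 was higher in each quartile, with 1.13, 0.96, 0.45 and 0.53. Pf4 was not, with −0.18, 1.74, 0.40 and 0.81. Id1 had 1.10, 0.66, 2.55 and 2.17.

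Shares of cells at 1000 UMIs and summed levels pointed the same way for Oas3, Plaur and Ms4a7, but not for every gene. Oas3 was seen in 21.4% and 10.2% of members (59.4% and 31.5% unthinned), against 13.1% and 6.88% of lymphocyte barcodes. Plaur was seen in 12.2% and 25.9% of members (38.0% and 53.1% unthinned), against 3.49% and 6.11%. Ms4a7, close in summed level, was seen in 64.8% and 49.7% of members (83.9% and 68.8% unthinned), against 10.5% and 3.27%. Ms4a7 was therefore seen in fewer ketogenic members while its summed level differed by 1460 to 1322 CPM. Ccl12 had a higher summed level under the ketogenic diet (1291 and 1537 CPM). Its share was lower at 43.8% (40.3 to 47.3) and 38.9% (33.6 to 44.3), with overlapping intervals. The same held for Ccl7 (1405 and 2107 CPM, 44.9% and 43.1%), Cxcl10 (2428 and 2900 CPM, 49.1% and 45.8%) and Cd74 (5301 and 5855 CPM, 66.7% and 63.3%). Apoe, Cxcl9 and Retnla went the same way as Ccl12, and Nos2 the reverse. The share intervals of the libraries overlapped for each of these genes from Ccl12 on, and Retnla rested on 6 and 2 cells.

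Most of the leading genes differed in the same direction outside the C1q-positive gate. Cxcl2 had a log2 ratio of 1.03 and Plaur of 1.02 in C1q-low monocytes, and Chil3 of 0.94 there and 1.03 in lymphocyte barcodes. In free RNA Chil3 stood at 229 and 633 CPM and Cxcl2 at 309 and 241 CPM. AY036118 had −1.05 in monocytes and −1.30 in lymphocyte barcodes, Xist −0.84 and −0.44, and Oas3 −0.72 and −0.74. All 24 named genes had the same sign in the 3 gates. Whether the size of any of these ratios differs between the gates was not tested.

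Features of the whole library moved with these ratios. In members the 12 measured mitochondrially encoded genes had a median of −0.50 (−0.51 in monocytes, −0.39 in lymphocyte barcodes) and the 88 ribosomal protein genes 0.19 (0.24 and 0.18). Mitochondrial transcripts, Xist and AY036118 were thus lower, and ribosomal transcripts higher, in each of the 3 gates. Their part in the ratios of the members was not tested. Leaving mitochondrial and ribosomal genes out of the totals gave a type I interferon median of −0.39.

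**Figure D5:**
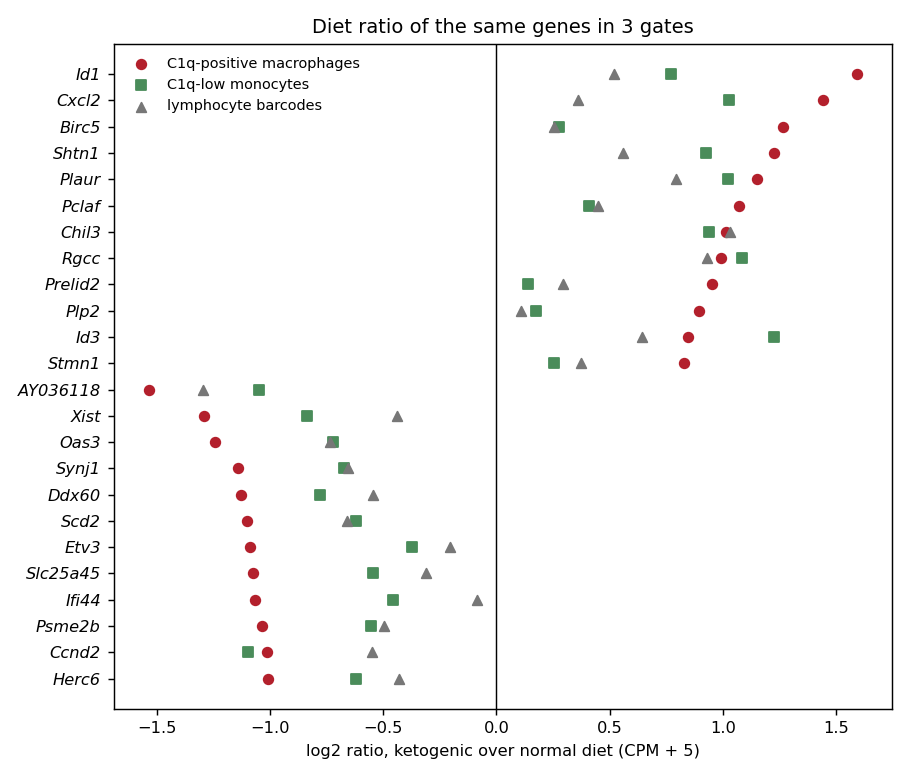
Ketogenic over normal log2 ratio (horizontal axis) of the 24 named genes in C1q-positive macrophages (red circles), C1q-low monocytes (green squares) and lymphocyte barcodes (gray triangles). Every gene has the same sign in the 3 gates, and Cxcl2 has 1.44 in the macrophages and 1.03 in the monocytes.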

How the data were processed

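Each deposited matrix holds unnormalized counts of UMIs for every gene in every barcode. The authors' software was Cell Ranger: the file headers give version 4, and the processing notes of the submitters give 6.0.0. Those notes also list Seurat (3.2.0) and, as genome builds, GRCm38 and mm10. Single cells were captured with 3' chemistry, per the labels' protocols. The matrices list all barcodes, 827272 and 813678.

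Computations used scipy 1.17.1, numpy 2.4.6 and pandas 2.3.3 under Python 3.11.15, and plots used matplotlib 3.10.9. Counts were summed over the members of each library and divided by their total (CPM). No doublet caller was run, and barcodes with lymphocyte, B cell or tumor genes were left out by the gate. Free RNA was measured in barcodes of at most 100 UMIs. The comparison of summed counts was run on simulated Poisson counts with known changes, which held no spread among cells or mice. The members and gene lists were chosen with earlier results of these data known, and the motifs with the printed sequences in view. Of the 6 markers, 3 drew the gate.

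Named genes are the 12 highest and 12 lowest diet ratios among genes of at least 20 CPM with no barcode holding over 20% of their UMIs, without mitochondrial, ribosomal, hemoglobin, immunoglobulin, C1q and provisional genes. From each list come the 4 largest ratios by the same limits and the 2 highest levels, and from the other comparisons the 10 highest and lowest by the smaller ratio of the libraries, with 1 sign in both and within the same limits on level and single barcodes. Genes named beyond this rule were chosen after their values were seen. Alternatives changed the pseudocount, low-value filter, scaling, thinning, cell weighting, free RNA and gate limits, and 3 were added after seeing the data (members without Ccr7, Klk1 or Siglech barcodes, members without Mki67, Top2a or Birc5 barcodes, and a C1q minimum of 4000 CPM).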

Additional observations from a re-analysis of the deposited data

Results flagged for a closer look

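Pf4 (platelet factor 4) and Mmp13 (collagenase 3) had opposite diet ratios in C1q-positive macrophages and C1q-low monocytes, in the single library of each diet. Pf4 had a log2 ratio of 0.81 in the macrophages (543 CPM in the normal and 958 CPM in the ketogenic library) and −0.69 in the monocytes (58.4 and 34.2 CPM). Mmp13 had 0.60 in the macrophages (53.4 and 83.2 CPM) and −1.09 in the monocytes (13.1 and 3.49 CPM). Neither difference between the cell gates was tested. With members holding any UMI of the excluded genes left out, the Pf4 ratio in macrophages was 0.28.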

How the results depend on the processing

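With 1 library per diet no library can be left out. No paired analysis was possible because each diet has a single library. The share of members had a log2 ratio of −0.86 with candidates that pass the exclusions as the denominator. The counts of genes 2-fold higher and lower, 16 and 33, were 33 and 100 with a pseudocount of 1 CPM, 5 and 6 with 20 CPM, 4 and 10 with a minimum of 50 CPM, and 112 and 342 with members thinned to 1000 UMIs, which rests on fewer UMIs. The count of lower genes was 21 with the median set to 0, 56 with no minimum, 56 with each cell weighted equally, 57 without barcodes holding Mki67, Top2a or Birc5, and 58 with a C1q minimum of 4000 CPM. The cell cycle median of 0.36 was −0.025 with a minimum of 50 CPM and −0.066 without the Mki67, Top2a or Birc5 barcodes. The chemokine median of 0.24 was 0.36 when thinned and 0.14 at the C1q minimum of 4000 CPM. Thinning reversed Icosl (0.023) and Hsph1 (0.24). Of 532 values of 28 list medians 518 differed from the main value by no more than the typical counting error of the list's genes, 12 moved further and 2 reversed, both in the cell cycle list. Of 972 values of the 54 named genes past 1.5-fold, 969 kept their sign. The type I interferon median ranged from −0.49 to −0.32. Beyond the fewer UMIs, genes or members of some settings, the cause was not tested. Depth limits genes near 10 CPM most, since the ketogenic members hold 1598741 UMIs.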

Other observations

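Against the C1q-low Arg1-positive macrophages, C1q-positive macrophages carried more interferon-related transcripts in both libraries, with only 35 and 17 barcodes on the other side. Of 24 measured interferon gamma genes 6 were at least 2-fold higher and 1 lower in both libraries, with medians of 0.45 and 1.40 (log2), and of 47 type I interferon genes 6 were higher and none lower, with medians of 0.52 and 0.77. Between diets, none of 11 iron and heme genes in the C1q-positive macrophages was past 1.5-fold (median 0.09). Of 14 genes of LXR response and cholesterol efflux 1 was at least 1.5-fold lower in the ketogenic library, the lipoprotein receptor gene Scarb1 at 22.1 and 11.3 CPM.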
